A study of Mus musculus with 8 samples.

Results

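The effect of removing FIH from cells that already lacked VHL was read from 4 of the study's 8 arrays, the 2 of VHL/FIH null and the 2 of VHL null mouse embryonic fibroblasts (MEFs). The difference between the mean log2 signals of these groups was taken for every probe set that passed a filter on low signal. The other 4 arrays, 2 of wild type and 2 of FIH null MEFs, gave the same comparison with VHL present and entered the estimate of each gene's spread. VHL/FIH null cells are called double null here.

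All 4 groups were fibroblasts immortalized with large T antigen, a viral oncoprotein that inactivates p53 and the retinoblastoma proteins, and all were grown in high glucose medium with serum at 21% oxygen. FIH null, VHL null and double null cells were obtained from FIHdf, VHLdf and VHLdf/FIHdf MEFs by infection with an adenovirus carrying Cre recombinase. The labels give the fourth group only as wild type and do not say whether it met the virus. Because each null group had its own floxed line, the loss of FIH and the line of origin cannot be told apart in these arrays. The number of embryos or clones behind a line is not given. The 2 arrays of a group are labelled biological replicates without a statement of what was repeated, so the tests reflect the spread of these samples alone, which may be technical. Total RNA was read on Affymetrix Mouse Genome arrays, with deposited values that are MAS5 signals on a linear scale.

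FIH, encoded by Hif1an, is an oxygenase that hydroxylates an asparagine in the C-terminal activation domain of HIF-1α and HIF-2α and so keeps the coactivators p300 and CBP from binding. VHL is the substrate receptor of a ubiquitin ligase that marks prolyl-hydroxylated HIF-α subunits for destruction. In cells without VHL the HIF-α subunits are stable in the presence of oxygen, and FIH is the remaining oxygen-dependent brake on their activity. Target genes differ in how far they depend on the C-terminal domain.

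A test was possible for 11564 of 18193 genes on the array, and each gene was read by its brightest probe set. A gene was called when the limma p-value, adjusted over all 24523 tested probe sets, was under 0.05. Between double null and VHL null cells 4047 genes were called, 35.0% of those tested, with 2390 higher (20.7%) and 1657 lower (14.3%) in double null cells. Signals of the 2 groups did not overlap in 67.4% of the tested genes. Counts on the deposited scale for any group of genes below are to be read against these percentages. Without VHL null replicate 1 the lower genes numbered 1090. Among the called genes 414 were at least 2-fold higher and 270 at least 2-fold lower. The balance of directions depended on the scale: 59.1% of the called genes were higher with the deposited signals, 44.9% after centring each array on its median and 31.3% after scaling to the spiked hybridization controls. Hybridization controls were 0.15 higher on the log2 scale in double null than in VHL null arrays, and that scaling lowers every difference by as much. Median difference over all tested genes was 0.052 on the deposited scale. With scaling to hybridization controls it was -0.093, with 1276 genes called higher and 2804 lower. List counts and medians given below for that scaling are to be read against these values. Across all probe sets other than controls, tested or not, arrays of one group correlated with r from 0.968 to 0.971. Double null correlated with VHL null arrays with r from 0.955 to 0.958. The ratio of 3' to 5' signal for Actb was 1.20 in VHL null arrays against 1.22 in double null arrays. Array values are given replicate 1 first. A number alone in parentheses after a gene is its log2 difference, double null minus VHL null. A gene at or below 291.1, the median of all signals, on both arrays of a group is given by its signals or with a lower bound on its fold. The bound is the other group's mean divided by that median.

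The targeted transcripts came first. Hif1an signal was 1913 and 2153 in VHL null and 1404 and 1169 in double null cells (log2 difference -0.66, SE 0.119, adjusted p = 0.00215). The groups did not overlap, and signal well above the median of all probe sets remained in cells labelled FIH null. Wild type arrays read 2722 and 3013 and FIH null arrays 1676 and 1707, a log2 difference of -0.75 (limma adjusted p = 0.00449). Deleted exons are not given in the labels, so the remaining signal does not measure FIH protein. Vhl, deleted in both groups, read 708 and 754 in VHL null and 1061 and 897 in double null cells against 3269 and 3319.6 in wild type cells. Its log2 difference of 0.41 passed the test (adjusted p = 0.0188), but the call ended without VHL null replicate 1 (adjusted p = 0.0906), without double null replicate 1 (adjusted p = 0.102) and with scaling to hybridization controls (adjusted p = 0.0948).

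Among components of the HIF pathway the transcripts of the α subunits moved in opposite directions. Hif1a read 33864 and 32544 in VHL null and 25481 and 28347 in double null cells (log2 difference -0.30, SE 0.0634, adjusted p = 0.00472). Epas1, which encodes HIF-2α, read 159 and 204 in VHL null and 660.5 and 494 in double null cells, at least 1.98-fold higher because both VHL null arrays lay below the median signal. The Epas1 call (adjusted p = 0.00651) ended without double null replicate 1, where the log2 difference was 1.38 (adjusted p = 0.0616). Egln3, an oxygen-dependent prolyl hydroxylase of HIF-α and itself a HIF target, read 4188 and 4412 in VHL null and 17534 and 16702 in double null cells (log2 difference 1.99, SE 0.0844, adjusted p = 1.24e-07). Both double null arrays exceeded every other array, and the value was 633 and 603 in wild type and 1086 and 1106 in FIH null cells. Of 23 tested pathway members (24 have a probe set) 6 rose and 3 fell, 26.1% and 13.0%, and 2 and 5 with scaling to hybridization controls. Besides those above, the ubiquitin ligase genes Siah2 (0.44) and Siah1a (0.40) and Os9 (0.25), which acts in the disposal of misfolded proteins, passed as higher, and the cullin Cul2 of the VHL ligase fell (-0.43). The Siah2 call ended with scaling to hybridization controls (adjusted p = 0.0619) and the Cul2 call with centring per chromosome (adjusted p = 0.0974). The Os9 call ended whichever of the 4 arrays was left out (adjusted p from 0.0541 to 0.115), and the Siah1a call, chosen after its values were seen, in 13 of the 24 alternatives (adjusted p = 0.279 without VHL null replicate 1). Rises numbered 3 without VHL null replicate 1 or double null replicate 1.

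Promoter sequences of 6 hypoxia-inducible genes are shown because their signals separate genes that rose with the loss of FIH from genes that did not. Each is the stretch of 250 bases upstream of the annotated start in RefSeq, build GRCm38.p6, written 5′ to 3′ on the gene's strand, with capitals marking ACGTG and GCGTG, the cores of the HIF binding motif, on either strand. The first 4 genes rose and the last 2, both glycolytic, did not pass the test.
Car9 (chr4:43506776-43507025, plus strand): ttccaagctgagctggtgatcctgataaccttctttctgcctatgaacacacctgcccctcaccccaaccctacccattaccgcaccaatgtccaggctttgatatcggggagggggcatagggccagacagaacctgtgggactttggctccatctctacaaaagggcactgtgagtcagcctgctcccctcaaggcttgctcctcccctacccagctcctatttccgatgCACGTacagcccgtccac
Ankrd37 (chr8:45999851-46000100, minus strand): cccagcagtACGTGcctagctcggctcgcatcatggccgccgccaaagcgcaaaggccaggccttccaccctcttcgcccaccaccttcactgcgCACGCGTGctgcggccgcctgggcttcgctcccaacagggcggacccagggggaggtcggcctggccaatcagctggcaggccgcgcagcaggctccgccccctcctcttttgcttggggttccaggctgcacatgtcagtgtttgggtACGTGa
Egln3 (chr12:54203875-54204124, minus strand): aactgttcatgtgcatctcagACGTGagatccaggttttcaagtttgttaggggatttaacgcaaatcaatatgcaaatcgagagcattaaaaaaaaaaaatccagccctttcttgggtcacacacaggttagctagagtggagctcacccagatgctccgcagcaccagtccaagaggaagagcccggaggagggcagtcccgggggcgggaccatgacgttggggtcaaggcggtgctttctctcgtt
Adm (chr7:110627407-110627656, plus strand): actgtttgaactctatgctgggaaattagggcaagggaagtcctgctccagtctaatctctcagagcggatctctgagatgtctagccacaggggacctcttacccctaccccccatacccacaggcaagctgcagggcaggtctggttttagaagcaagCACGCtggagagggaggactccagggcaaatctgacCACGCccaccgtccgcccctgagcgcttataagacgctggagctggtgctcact
Pgk1 (chrX:106186850-106187099, plus strand): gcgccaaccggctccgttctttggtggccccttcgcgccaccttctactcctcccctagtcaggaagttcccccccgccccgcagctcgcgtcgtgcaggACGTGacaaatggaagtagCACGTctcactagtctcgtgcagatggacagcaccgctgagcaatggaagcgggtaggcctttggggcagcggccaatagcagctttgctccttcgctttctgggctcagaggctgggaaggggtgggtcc
Ldha (chr7:46845554-46845803, plus strand): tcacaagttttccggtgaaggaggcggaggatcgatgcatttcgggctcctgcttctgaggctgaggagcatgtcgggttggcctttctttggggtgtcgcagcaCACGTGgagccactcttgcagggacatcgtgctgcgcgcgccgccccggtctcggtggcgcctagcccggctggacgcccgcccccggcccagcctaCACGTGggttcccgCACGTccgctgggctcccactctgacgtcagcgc

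ACGTG was found 1 time in the Car9 window, 2 times in that of Ankrd37, 1 time in that of Egln3, 2 times in that of Pgk1 and 5 times in that of Ldha, whose window is 1 of 2 listed. A palindrome CACGTG counts on both strands. GCGTG was found 2 times in the Ankrd37 window and 2 times in the Adm window. Genes that rose and genes that did not thus both carried the letters. Over all 32851 listed promoters of this length 16.6% held ACGTG, 28.2% held GCGTG and 38.6% held either. Some genes have several listed windows. Counted by gene, either core was in at least 1 window of 17 of 19 hypoxia-inducible genes that rose and 19 of 24 that did not, and in 62.1% of all 9382 tested genes with a window. A match is a run of letters and not a measured binding site.

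Many hypoxia-inducible genes were higher in double null cells, among them Car9, Selenbp1, Ankrd37, Ndufa4l2 and Adm. Of 55 tested (57 have a probe set) 24 rose and 6 fell, 43.6% against 20.7% of all genes and 10.9% against 14.3%. These counts are a description, since the members were chosen with results known. Its median log2 difference was 0.29 beside 0.052 for all genes, and 0.14 with 19 and 7 genes called higher and lower after scaling to hybridization controls. Signals of 51 members lay above the median signal on all 4 arrays.

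Car9, a cell-surface carbonic anhydrase that handles acid from glycolysis, stood first in this list. It read 243 and 436 in VHL null and 8284 and 7768 in double null cells (log2 difference 4.56, SE 0.255, adjusted p = 7.88e-07). Only 1 of the 2 VHL null arrays was above the median signal, and values were 130.3 and 158 in wild type and 251 and 240.0 in FIH null cells, all below it. Selenbp1, a methanethiol oxidase, read 419.8 and 348 in VHL null and 3986 and 3473 in double null cells (log2 difference 3.23, SE 0.220, adjusted p = 3.12e-06). Ankrd37, a small ankyrin repeat protein, read 3895 and 3082 in VHL null and 16062 and 15321 in double null cells (log2 difference 2.17, SE 0.130, adjusted p = 1.24e-06). FIH null cells also exceeded wild type cells in this gene, 3207 and 3112 against 974 and 1249.7. Ndufa4l2, a mitochondrial protein known to lower complex I activity in hypoxia, read 1114 and 1157 in VHL null and 4991 and 4713 in double null cells (log2 difference 2.08, SE 0.271, adjusted p = 2.87e-04), and its signals were below the median in cells with VHL. Adm, the precursor of the vasodilator adrenomedullin, read 4348 and 4810.1 in VHL null and 18836 and 16327 in double null cells (log2 difference 1.94, SE 0.109, adjusted p = 8.26e-07). In each of these 5 genes both double null arrays were above all 6 other arrays.

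Smaller rises were seen in other genes that respond to hypoxia. Tmem45a went from 13841 and 13676 to 37046 and 29329 (log2 difference 1.26, adjusted p = 5.67e-05). The mTORC1 inhibitor gene Ddit4 went from 11802 and 11999.6 to 24220.5 and 21610.4 (log2 difference 0.94, adjusted p = 5.71e-06). Plod1, a lysyl hydroxylase of collagen, went from 3987 and 4052 to 7984 and 6749 (log2 difference 0.87, adjusted p = 4.79e-05). In these 3 genes the groups did not overlap. The collagen prolyl hydroxylase gene P4ha1 (0.57), the angiogenic factor gene Vegfa (0.54) and the mitophagy receptor gene Bnip3 (0.37) rose less than 2-fold, with double null signals of 30222 and 25182, 10414 and 8742 and 54259 and 46921. In the opposite direction Errfi1, a feedback inhibitor of the EGF receptor, fell from 28548 and 29833 to 16964 and 16048 (log2 difference -0.82, adjusted p = 3.82e-06), and Angptl4, an inhibitor of lipoprotein lipase, fell from 1791 and 1627 to 1017 and 805 (log2 difference -0.90, adjusted p = 0.0026).

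Other targets that were high in VHL null cells did not pass the test. Stc1, the hormone stanniocalcin, read 4939.5 and 5182 in VHL null and 5502 and 5034 in double null cells and at most 185 on the arrays of cells with VHL. Its log2 difference between double null and VHL null cells was 0.057 (SE 0.184, adjusted p = 0.851). Ndrg1 read 22029 and 22554 in VHL null and 23885 and 23056 in double null cells (log2 difference 0.074, SE 0.0609, adjusted p = 0.398). Pgk1, phosphoglycerate kinase, read 104222 and 95804 in VHL null and 109919 and 91904 in double null cells (log2 difference 0.0084, SE 0.0859). Ldha, lactate dehydrogenase A, read 101605 and 92329 in VHL null and 107048 and 88606 in double null cells (log2 difference 0.0080, SE 0.0890). The groups overlapped in Stc1, Pgk1 and Ldha, and all 4 genes were picked with their values in view. With 2 arrays a group such a p does not show that the levels were equal.

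**Figure D1:**
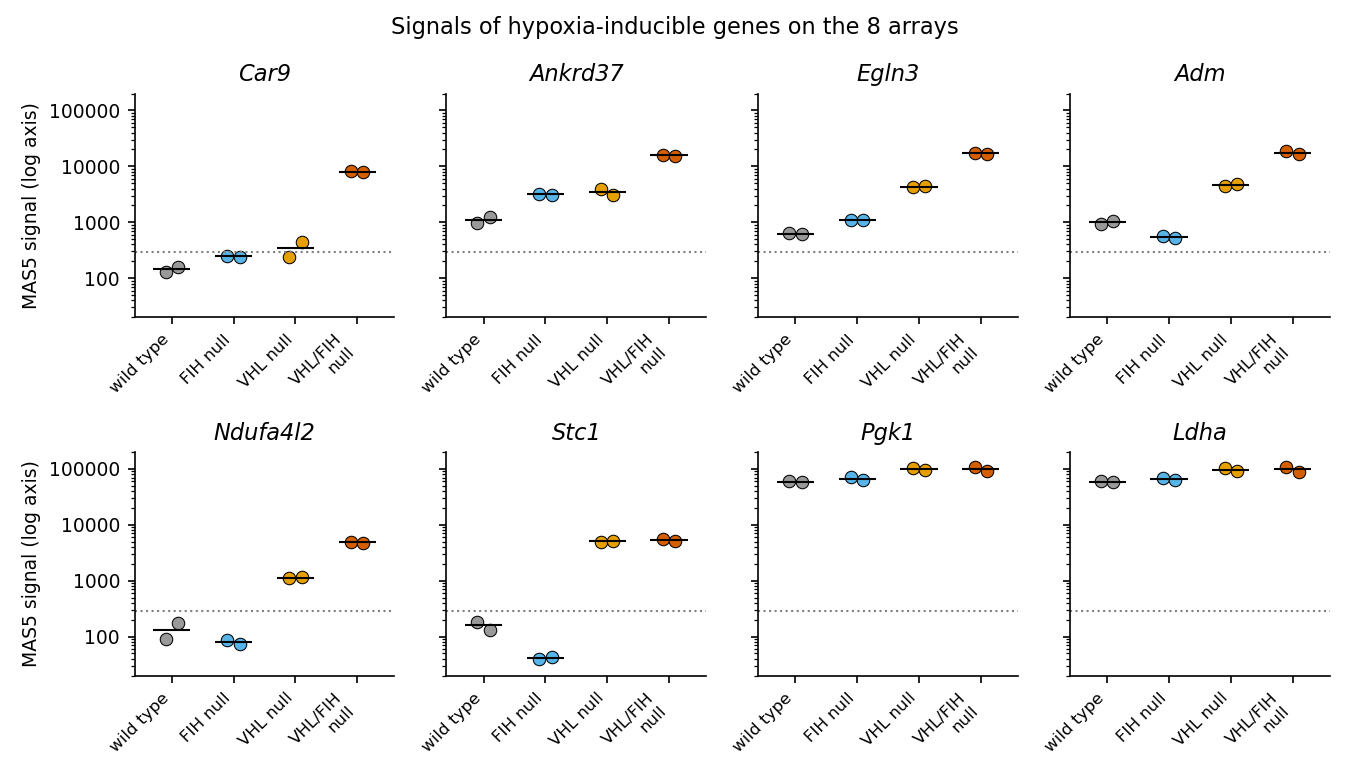
MAS5 signals (log axis) of 8 hypoxia-inducible genes on the 2 arrays of each of 4 groups; points are arrays, bars are group means and the dotted line is the median of all signals, 291.1. Car9, Ankrd37, Egln3, Adm and Ndufa4l2 were highest in double null cells, while Stc1, Pgk1 and Ldha overlapped between VHL null and double null cells in all 3 panels.

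The same deletion with VHL present gave other values for many of these genes. The comparisons share no array, and their difference, the interaction, was tested in the same limma fit. The interaction passed in 2204 genes (19.1% of those tested), 23 of them among the 55 hypoxia-inducible genes. Adm differed by -0.83 between FIH null and wild type cells (933 and 1048 in wild type, 578 and 521 in FIH null) and by 1.94 between double null and VHL null cells (interaction 2.77, adjusted p = 2.35e-06). For Car9 the difference was 0.71 with VHL and 4.56 without it (interaction 3.84, adjusted p = 8.25e-05). For Egln3 the values were 0.81 and 1.99 (interaction 1.18, adjusted p = 1.40e-04), and for Ankrd37 1.50 and 2.17 (interaction 0.67, adjusted p = 0.0327). P4ha1 differed by 0.57 with VHL and 0.57 without it, and Errfi1 by -0.75 and -0.82; for these 2 the interaction did not pass (adjusted p = 0.996 and 0.6). Car9 signals with VHL were below the median signal, so its value of 0.71 carries little information on level.

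**Figure D2:**
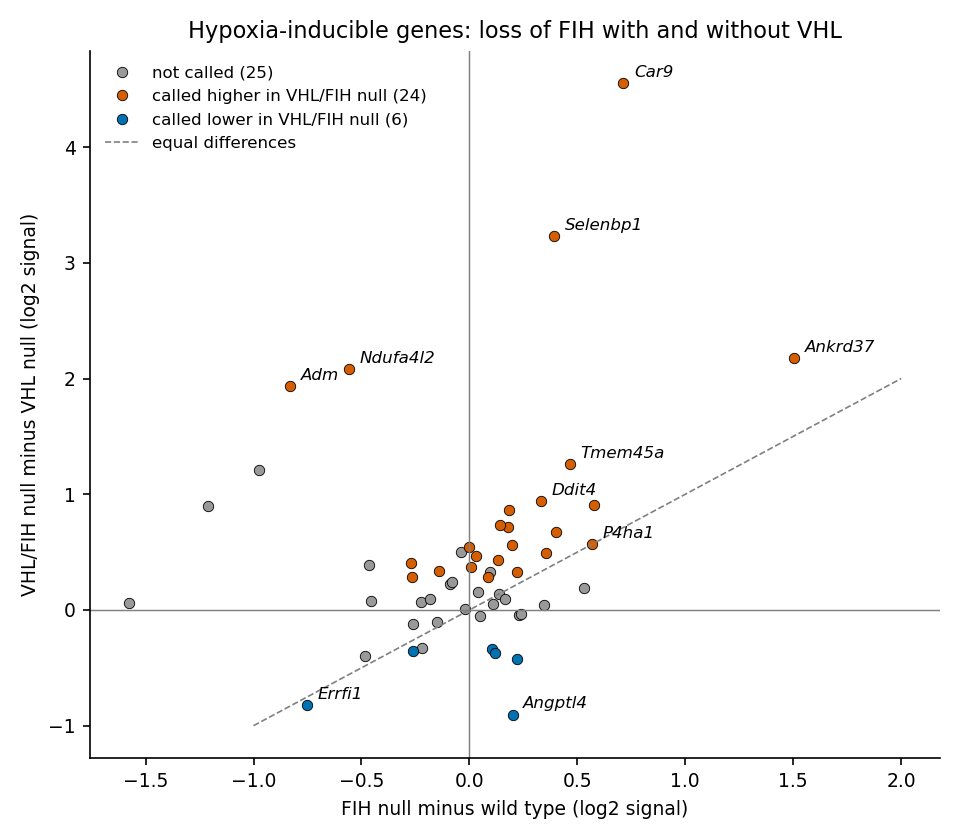
Log2 difference between FIH null and wild type cells (horizontal) and between double null and VHL null cells (vertical) for the 55 tested hypoxia-inducible genes; each point is a gene, coloured by its call between double null and VHL null cells, and the dashed line marks equal differences. Car9, Selenbp1, Ndufa4l2 and Adm lie far above the line, P4ha1 and Errfi1 close to it.

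Genes of glucose uptake and glycolysis went both ways. Of 30 tested (31 have a probe set) 8 rose and 5 fell, 26.7% and 16.7%, and 4 and 6 with scaling to hybridization controls, where the median of 0.11 turned to -0.037. Pfkfb3, whose product drives phosphofructokinase, rose from 3231 and 3086 to 6650.5 and 5183 (log2 difference 0.89, adjusted p = 3.77e-04). Aldoc, an aldolase, rose from 5163 and 4678 to 8579 and 7844 (log2 difference 0.74, adjusted p = 1.65e-04), and Gbe1, the glycogen branching enzyme, from 4025 and 4313 to 6199.9 and 6289 (log2 difference 0.58, adjusted p = 0.00121). Glucose enters through Slc2a1 and Slc2a3, which differed by 0.32 and 0.70. The Slc2a1 call ended with scaling to hybridization controls (adjusted p = 0.0752) and the Slc2a3 call without VHL null replicate 1 (adjusted p = 0.151) or double null replicate 1 (adjusted p = 0.172). Hk2, a hexokinase, passed at adjusted p = 0.0189 with 0.26, a call that ended without VHL null replicate 1 (adjusted p = 0.0602), VHL null replicate 2 (0.0969) or double null replicate 1 (0.111). Of the 5 genes that fell, Pfkfb2 changed most, from 863 and 937 to 515 and 517 (log2 difference -0.78), a call lost when its 3 probe sets were averaged (adjusted p = 0.0794). The others were Pgm2 (-0.27), Pgm1 (-0.28), Pfkm (-0.24) and Pdk3 (-0.20), each a call that ended in at least 1 fit that left out an array (highest adjusted p 0.0754, 0.254, 0.214 and 0.201). Pgm2 and Pfkm were also lost with centring per chromosome (adjusted p = 0.465 and 0.474) and Pgm1 with the mean over probe sets (0.722). Rises numbered 4 without VHL null replicate 1, 5 without VHL null replicate 2 or double null replicate 1 and falls numbered 1 without VHL null replicate 1, 2 without VHL null replicate 2 or double null replicate 2, 3 without wild type replicate 1 or wild type replicate 2 or FIH null replicate 1 or FIH null replicate 2.

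Genes of fatty acid and cholesterol synthesis that passed the test were all lower in double null cells. Of 33 tested (34 have a probe set), 0 rose and 15 fell, 45.5% against 14.3% of all genes. The list median was -0.16 beside 0.052 for all genes. Under 4 other scalings the list median ran from -0.30 to -0.18. Each of these scalings also lowered the median of all genes, so a list median below 0 could hardly turn. Cyp51, lanosterol demethylase, fell from 8644 and 7916 to 4965 and 5165 (log2 difference -0.71, SE 0.0683, adjusted p = 3.92e-05). Srebf2, the transcription factor that drives cholesterol synthesis genes, fell from 4481 and 4362 to 3183 and 2806 (log2 difference -0.56, SE 0.0770, adjusted p = 3.93e-04). The desaturase gene Fads2 fell from 4010.3 and 4183 to 2865 and 2956 (log2 difference -0.49, SE 0.0689, adjusted p = 4.61e-04). In these 3 genes wild type and FIH null arrays were all above the VHL null arrays, for Cyp51 13311 and 14071 in wild type and 11888 and 11476 in FIH null cells. With quantile normalization 0 rose and 15 fell, and with centring per chromosome 1 rose and 17 fell. At an unadjusted limma p under 0.05 3 genes were higher. Rises numbered 1 without VHL null replicate 1.

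Few genes of oxidative phosphorylation passed the test with the deposited signals. Of 55 tested genes of oxidative phosphorylation 2 rose and 6 fell (0 and 24 with scaling to hybridization controls), of 20 of the tricarboxylic acid cycle 2 rose and 3 fell (1 and 8), and of 23 of fatty acid oxidation 5 rose and 4 fell (2 and 6). The share called in oxidative phosphorylation, 3.64% higher and 10.9% lower, stood beside 20.7% and 14.3% of all genes. It was 10% higher and 15% lower in the tricarboxylic acid cycle, and 21.7% and 17.4% in fatty acid oxidation. Subunits of complex I moved both ways: Ndufs5 fell from 19578 and 17825 to 8998 and 8898 (log2 difference -1.06, SE 0.0638, adjusted p = 1.29e-06) and Ndufs8 from 47408 and 43356 to 30003 and 32821 (log2 difference -0.53, adjusted p = 3.23e-04). The 2 that rose were Ndufs4 (0.24), a call that ended without VHL null replicate 2 (adjusted p = 0.165) or double null replicate 2 (0.0729), and Ndufb2 (0.33), which turned to -0.084 without probe sets that may cross-hybridize. Pcx, pyruvate carboxylase, rose from 1135 and 1102 to 1781 and 1737 (log2 difference 0.65), a call that ended without VHL null replicate 2 (adjusted p = 0.0519). Fh1, fumarase, rose (0.23), and Cs, citrate synthase (-0.17), Suclg1 (-0.18) and Pdhb (-0.18) fell, each by a small amount and with a call that did not hold without some arrays or under other settings (highest adjusted p 0.428 with scaling to hybridization controls, 0.185 without VHL null replicate 1, 0.197 without VHL null replicate 1 and 0.34 with centring per chromosome). The Fh1 call ended without VHL null replicate 2 (adjusted p = 0.0766) or double null replicate 2 (0.052), the Cs call whichever of the 8 arrays was left out, the Suclg1 call whichever array other than double null replicate 2 was left out, and the Pdhb call whichever array other than a wild type one was left out. In fatty acid oxidation Cpt1c, a carnitine acyltransferase of the endoplasmic reticulum, rose from 2298 and 2022 to 3839.6 and 3748 (log2 difference 0.81, adjusted p = 9.79e-05), while Cpt1a, which carries long-chain fatty acids into mitochondria, fell (-0.41), as did the isomerase Eci1 (-0.50). The mitochondrial carrier gene Slc25a20 (0.40), Decr1 (0.35) and the acyl-CoA dehydrogenase genes Acadl (0.32) and Acadm (0.23) also rose, while Hadha (-0.37) and Hadhb (-0.41), the subunits of the trifunctional protein, fell. Among those last 6 genes the Slc25a20 call held under every alternative run, and the other calls were lost under at least 1, with the highest adjusted p at 0.0949 with scaling to hybridization controls for Decr1, 0.0778 with scaling to hybridization controls for Acadl, 0.426 with scaling to hybridization controls for Acadm, 0.107 with centring per chromosome for Hadha and 0.203 with centring per chromosome for Hadhb. The Acadm call ended without VHL null replicate 1 (adjusted p = 0.0722), VHL null replicate 2 (0.0669) or double null replicate 2 (0.0786), and the Hadhb call without VHL null replicate 1 (0.0865), VHL null replicate 2 (0.0965) or double null replicate 1 (0.15). In oxidative phosphorylation rises numbered 1 without VHL null replicate 2 and falls numbered 3 without VHL null replicate 2 or double null replicate 2. In the tricarboxylic acid cycle rises numbered 0 without VHL null replicate 2, 1 without double null replicate 2 and falls numbered 0 without FIH null replicate 1 or FIH null replicate 2 or VHL null replicate 1 or VHL null replicate 2, 1 without wild type replicate 1 or wild type replicate 2 or double null replicate 1.

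FIH also hydroxylates ankyrin repeat proteins, among them Notch receptors and IκBα, and the transcripts of these substrates and of the Notch pathway were listed. Of 28 tested (29 have a probe set) 7 rose and 4 fell, 25.0% and 14.3%, with a median of 0.10; scaled to hybridization controls, the median was -0.045 and the rises and falls numbered 5 and 8. The receptor gene Notch1 read 1018 and 1295 in VHL null and 1697 and 1528 in double null cells (log2 difference 0.48, adjusted p = 0.0213), a call lost without VHL null replicate 1 (adjusted p = 0.153), without double null replicate 1 (0.107) and with scaling to hybridization controls (0.07). Its level with VHL was 2631 and 2388 in wild type and 1014 and 1053 in FIH null cells, a log2 difference of -1.27 (interaction 1.75, adjusted p = 2.27e-04). The ligand gene Jag1 read 433 and 422 in VHL null and 742 and 899 in double null cells (log2 difference 0.91, adjusted p = 0.00845), but averaging over the gene's probe sets gave 0.11 (adjusted p = 0.861), and the call was lost without double null replicate 2 (0.0634). Hey1, a transcriptional repressor induced by Notch, read 304 and 214 in VHL null and 674 and 788 in double null cells (log2 difference 1.46, adjusted p = 0.0139), a call lost without VHL null replicate 2 (0.0889) or double null replicate 2 (0.0825). These 3 were picked with their values in view. Numb, an inhibitor of Notch, rose from 4460.2 and 4513 to 6117 and 5748 (log2 difference 0.40, adjusted p = 0.00162). Asb4, an ankyrin repeat substrate of FIH, fell from 1579 and 1807 to 293 and 224 (log2 difference -2.65, adjusted p = 9.30e-06), with 1 of 2 double null arrays above the median signal, and was 2796 and 3007 in wild type and 164 and 238 in FIH null cells. Dlk1, an atypical Notch ligand, fell from 31726 and 29966 to 8009 and 6322 (log2 difference -2.11, SE 0.0927, adjusted p = 1.51e-07). The other 2 falls were Rbpj (-0.37), the DNA-binding partner of Notch, whose call ended without VHL null replicate 1 (adjusted p = 0.0517) and with centring per chromosome (0.123), and Nfkb2 (-0.23), whose call ended whichever of the 4 arrays was left out (adjusted p from 0.0706 to 0.166). Rises numbered 3 without double null replicate 1 or double null replicate 2, 4 without VHL null replicate 1 and falls numbered 2 without VHL null replicate 1.

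Several interferon-stimulated genes were higher, and several chemokine genes lower, in double null cells. Of 31 tested interferon-stimulated genes (36 have a probe set) 16 rose and 4 fell, 51.6% against 20.7% of all genes, with a median of 0.69 (0.55 with scaling to hybridization controls). In all, 18 of them were above the median signal on all 4 arrays. A gene that passed the filter through 1 group alone was bound to differ, which limits what these counts show. Ifi27 rose from 691 and 689.9 to 3873 and 3184 (log2 difference 2.32, SE 0.128, adjusted p = 7.52e-07), Rtp4 from 292 and 334 to 1220.1 and 1194 (log2 difference 1.90, adjusted p = 1.08e-05) and the ADP-ribosyltransferase gene Parp9 from 619 and 668 to 1856 and 1609.9 (log2 difference 1.40, adjusted p = 3.70e-05). Ifi27 read 1842 and 2075 in wild type and 1596 and 1846 in FIH null cells, so that VHL null cells held the lowest level of the 4 groups. The 4 that fell were Isg20 (-0.92), Ifit3 (-0.68, adjusted p = 0.0558 without VHL null replicate 1), Irf1 (-0.29) and Trim25 (-0.21). The Irf1 and Trim25 calls ended in several fits without 1 array (highest adjusted p 0.242 and 0.214). Falls numbered 1 without VHL null replicate 1, 2 without FIH null replicate 1 or FIH null replicate 2 or VHL null replicate 2 or double null replicate 2. Among 26 tested NF-κB targets and chemokines 4 rose and 8 fell, with a median of -0.18; the counts were 3 and 14 and the median -0.33 with scaling to hybridization controls, and 11 fell with median centring. Ccl2, which attracts monocytes, fell from 8871 and 8725 to 3766 and 4275 (log2 difference -1.13, adjusted p = 2.63e-06), and Ccl9 from 1302 and 1197 to 128 and 178, at least 4.29-fold lower. The adhesion molecule gene Vcam1 rose from 2022 and 1698 to 6109.9 and 7829 (log2 difference 1.89, adjusted p = 1.53e-06) and the macrophage growth factor gene Csf1 from 11440.1 and 11399.8 to 16611 and 16681 (log2 difference 0.54, adjusted p = 1.42e-04). The chemokine genes Ccl5 (0.59) and Cxcl10 (0.40) rose too, the latter not under every alternative (highest adjusted p 0.184 with scaling to hybridization controls, and 0.174 without double null replicate 2 or 0.162 without VHL null replicate 2).

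Collagen and other matrix genes moved in both directions. Of 46 tested extracellular matrix genes (50 have a probe set) 20 rose and 8 fell, 43.5% and 17.4%, and 13 and 13 with scaling to hybridization controls; the median was 0.20 and 0.051. Col6a3, a chain of collagen VI, rose from 524 and 470.3 to 4729 and 4558 (log2 difference 3.18, SE 0.143, adjusted p = 1.68e-07), and Col12a1 from 942 and 870.3 to 6215 and 5101 (log2 difference 2.62, SE 0.108, adjusted p = 9.60e-08). Aspn, a small leucine-rich proteoglycan, went from 218 and 250.3 to 2446 and 3422, at least 10.1-fold higher. Thbs2, thrombospondin 2, fell from 4729 and 4486 to 979.8 and 830.4 (log2 difference -2.33, SE 0.150, adjusted p = 2.17e-06). Of 23 matrix remodelling enzymes 9 rose and 7 fell: the aggrecanase gene Adamts5 rose from 2465 and 2763 to 17441 and 15175 (log2 difference 2.63, adjusted p = 1.22e-08), while the serine protease gene Htra1 fell from 15817 and 14967 to 3776 and 3464 (log2 difference -2.08, adjusted p = 2.30e-08) and Plat, tissue plasminogen activator, from 15748 and 16619 to 8594 and 9084 (log2 difference -0.87, adjusted p = 5.63e-06). Among 20 contractile genes 9 rose and 3 fell (6 and 5 with scaling to hybridization controls), and these included smooth muscle actin Acta2, from 14579 and 14201 to 31539 and 28414 (log2 difference 1.06, adjusted p = 1.25e-06), the light chain Myl9 (1.01) and calponin Cnn1 (0.97). The 3 contractile genes that fell were Mylk (-1.22), Actg2 (-0.83) and Smtn (-0.28). Actg2 lost its call without VHL null replicate 2 (adjusted p = 0.0852) and Smtn in several such fits (up to 0.173). In the matrix list rises numbered 13 without VHL null replicate 1. Among remodelling enzymes falls numbered 4 without VHL null replicate 1 or double null replicate 2. Among contractile genes falls numbered 1 without VHL null replicate 2.

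Several transcripts that p53 is known to induce were higher in double null cells, and every group carried large T antigen. Of 31 tested p53 targets and inhibitors of cyclin-dependent kinases 17 rose and 3 fell, 54.8% and 9.68%, with a median of 0.43 (0.29 with scaling to hybridization controls). Eda2r, a death-domain receptor, rose from 371 and 355 to 2128 and 1884 (log2 difference 2.41, adjusted p = 7.11e-06), Trp53inp1 from 3109.5 and 3526 to 10701 and 9861 (log2 difference 1.63, adjusted p = 6.66e-07) and Ccng1, cyclin G1, from 26062 and 26312 to 51614 and 49701 (log2 difference 0.95, adjusted p = 8.42e-07). Cdkn1a, which encodes p21, rose from 9183 and 8742 to 25422 and 22083 (log2 difference 1.40, adjusted p = 7.82e-06) and was chosen after its values were seen. Values were 6391 and 5027 in wild type and 5303 and 5619 in FIH null cells. The imprinted inhibitor gene Cdkn1c, which encodes p57, fell from 8914 and 7922 to 1608 and 1223 (log2 difference -2.57, adjusted p = 1.66e-07). The other 2 falls were Perp (-0.46) and Plk2 (-0.21), the latter lost without VHL null replicate 1, VHL null replicate 2 or double null replicate 2 (adjusted p up to 0.127). Of 50 genes of the cell cycle and DNA replication 14 rose and 6 fell, and 7 and 12 with scaling to hybridization controls, under which the median of 0.052 turned to -0.094. The D-type cyclin gene Ccnd2 rose in all 7 of its probe sets, from 16127 and 16718 to 29394 and 28038 in the brightest (log2 difference 0.81, adjusted p = 3.87e-06), whereas its kinase partner Cdk6 fell from 11273 and 10614 to 5452 and 4847 (log2 difference -1.09, adjusted p = 3.49e-05). In the cell cycle list falls numbered 3 without VHL null replicate 2.

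Genes of the stress lists moved both ways, with a balance that depended on the scale. Of 38 genes of amino acid deprivation and ER stress 7 rose and 8 fell (median 0.035), against 3 and 14 and a median of -0.11 with scaling to hybridization controls, and of 32 NRF2 targets and antioxidant genes 10 rose and 6 fell (median 0.076), against 5 and 12 and -0.070 with that scaling. In the latter the epoxide hydrolase gene Ephx1 rose from 4783 and 4374 to 13141 and 11257 (log2 difference 1.41, adjusted p = 1.29e-06) and the malic enzyme gene Me1 from 12080.3 and 11835 to 21598 and 21011 (log2 difference 0.83, adjusted p = 2.83e-06). Among the former the amino acid transporter gene Slc7a1 (-0.54) and the transcription factor gene Cebpb (-0.57) fell. Of 13 genes of iron handling 0 rose and 4 fell, the iron importer gene Slc11a2 (-0.45), the ferritin heavy chain gene Fth1 (-0.27), the iron exporter gene Slc40a1 (-0.85) and mitoferrin Slc25a37 (-0.25). The last 2 calls ended under some alternatives (highest adjusted p 0.141 without double null replicate 1 and 0.145 with centring per chromosome, and for the latter 0.11 without VHL null replicate 1, 0.0522 without VHL null replicate 2 and 0.0733 without double null replicate 1). In the ER stress list falls numbered 4 without VHL null replicate 1. In the NRF2 list rises numbered 6 without VHL null replicate 1 or double null replicate 1 and falls numbered 3 without VHL null replicate 1 or double null replicate 2. In the iron list rises numbered 1 without double null replicate 1 or double null replicate 2 and falls numbered 2 without VHL null replicate 1 or VHL null replicate 2 or double null replicate 1, and at an unadjusted limma p under 0.05 0 genes were higher.

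**Figure D3:**
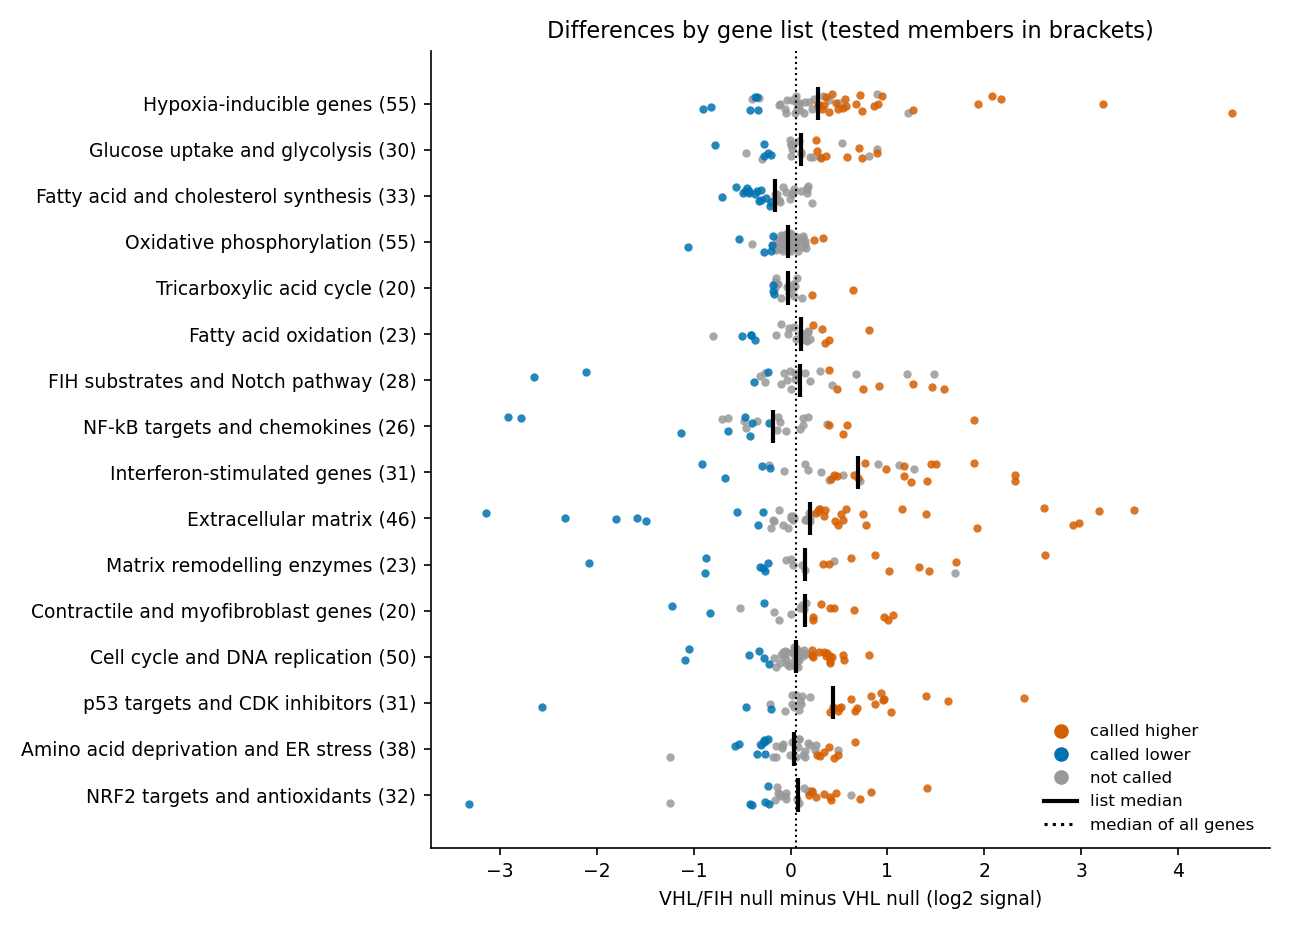
Log2 difference between double null and VHL null cells for every tested member of 16 gene lists; points are genes, coloured by call, black bars are list medians and the dotted line is the median of all genes. Interferon-stimulated genes (0.69), p53 targets (0.43) and hypoxia-inducible genes (0.29) have the highest medians of these lists, and NF-κB targets (-0.18) and lipid synthesis genes (-0.16) the lowest.

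Patterning factors, matrix genes and imprinted genes were among those with the largest differences. Among genes above the median signal on all 4 arrays, the rises were led by Shox2, a homeobox gene of the limb, from 453 and 472 to 10209 and 10249 (log2 difference 4.42, SE 0.194, adjusted p = 1.50e-07), the LIM-domain gene Fhl1, from 1648 and 1629.5 to 31962 and 29438 (log2 difference 4.21, SE 0.0723, adjusted p = 1.58e-10), and the imprinted gene Ndn, from 963 and 835 to 13997 and 16877 (log2 difference 4.08, SE 0.115, adjusted p = 6.39e-09). Wild type cells read 14798 and 16675 for Fhl1, far above the VHL null arrays, but 818 and 898 for Shox2, far below the double null arrays. Slit2, an axon guidance ligand, and Cavin2, a coat protein of caveolae, followed with 3.46 and 3.34, as did Igfbp2 (3.28), Sulf1 (3.17), which trims heparan sulfate, and Stox2 (3.36). Genes below the median signal in VHL null cells can only be bounded: Pycard, the inflammasome adaptor, was at least 15.4-fold higher, Col10a1, the collagen of hypertrophic cartilage, at least 14.7-fold, and the homeobox gene Lhx2 at least 11.8-fold. Pycard signals were 7.70 and 59.2 in VHL null and 4160.3 and 4794 in double null cells. That bound holds for the brighter of its tested probe sets; with a pseudocount of 1 a dimmer probe set was the one read, and the log2 difference was 2.23. Falls above the median signal were led by Hoxc6, Pcbd1 (-3.29), a cofactor-recycling enzyme, Gnai1 (-3.02), an inhibitory G protein subunit, and Hoxa5, followed by Zfp52 (-2.68), the chemokine gene Ppbp (-2.67), the RNA-binding protein gene Rbpms (-2.66), Foxd1 (-2.61), 3110039M20Rik (-2.60) and Adgrg6 (-2.57). Zic1, a zinc finger factor of the neural tube and axial skeleton, dropped from 13829 and 14791 to 104 and 39.3, at least 49.2-fold lower, and Gm6958 was at least 29.4-fold lower.

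Hox genes, which set position along the body axis and the limbs, were called without exception among the 25 tested of 33 with a probe set (8 rose and 17 fell). The counts were the same under 4 other scalings. These moved the list median little, from -2.63 to between -2.77 and -2.69, and could hardly alter calls of this size. Above the median signal on all 4 arrays were 11, and a gene that passed the filter through 1 group alone was bound to differ. Direction followed the cluster. All 5 HoxD genes rose: Hoxd13 went from 103 and 119 to 12996 and 12946, at least 44.6-fold higher, and Hoxd10 from 1064 and 935 to 4058 and 5700.3 (log2 difference 2.25, adjusted p = 5.52e-06). All 6 HoxB and all 6 HoxC genes fell: Hoxb6 went from 7449.9 and 7676 to 177 and 176, at least 26.0-fold lower, Hoxc8 from 17703 and 17541 to 196 and 52.5, at least 60.5-fold lower, and Hoxc6 from 6528 and 6699 to 520.2 and 344 (log2 difference -3.91, adjusted p = 6.66e-08). In the HoxA cluster the direction turned along the gene order: Hoxa2, Hoxa3, Hoxa4, Hoxa5 and Hoxa7 fell (-2.63, -1.93, -2.23, -2.72 and -1.60), whereas Hoxa9, Hoxa10 and Hoxa11 rose (0.77, 1.52 and 2.17). Without probe sets that may cross-hybridize Hoxa3 was at -0.50 and was not called (adjusted p = 0.0524). Hoxa11 read 1054 and 1069 in VHL null and 5284 and 4398 in double null cells, against 1823 and 1688 in wild type cells, and Hoxa5 read 13061 and 12811 in VHL null and 1873 and 2022 in double null cells, against 7562 and 8339. The low-numbered genes of a cluster act toward the head and the high-numbered ones toward the tail and the tips of limbs.

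**Figure D4:**
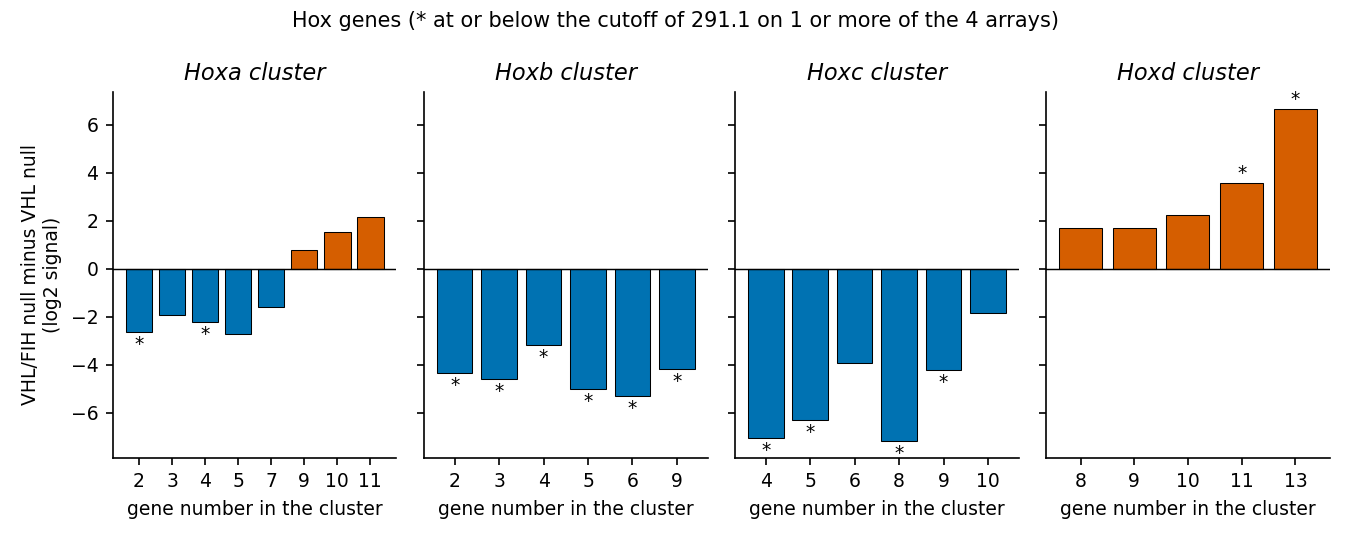
Log2 difference between double null and VHL null cells for the 25 tested Hox genes, in order of their number within each of the 4 clusters; bars start at 0 and an asterisk marks a gene at or below the median signal on at least 1 of the 4 arrays. HoxB and HoxC genes are all lower, HoxD genes all higher, and HoxA genes change sign between Hoxa7 and Hoxa9.

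Other patterning factors moved as well. Of 42 tested limb and craniofacial factors 19 rose and 8 fell, 45.2% of them higher. Above the median signal on all 4 arrays were 31, and here too a gene that passed the filter through 1 group alone was bound to differ. Tbx4, known for its part in the hindlimb, went from 21.4 and 7.30 to 2145 and 2268, at least 7.58-fold higher, and Tbx5, known from the forelimb, from at most 160.0 to 1395 and 1471, at least 4.92-fold higher. Wild type cells read 49.7 and 23.9 for Tbx4 and 599.5 and 708 for Tbx5. Both were picked with their values in view. Foxd1 fell from 11203 and 12547 to 1749 and 2127 (log2 difference -2.61, adjusted p = 6.66e-08). Of 19 imprinted genes 5 rose and 5 fell, with Plagl1 up from 8617 and 8027 to 31321 and 24764 (log2 difference 1.74, adjusted p = 9.81e-07), and the neighbouring Dlk1 (-2.11) and Meg3 (-1.32) both down. Mest (1.61), Sgce (0.48) and Igf2r (0.44) also rose beside Ndn, and Slc38a4 (-0.34), Cdkn1c and Dcn fell. The Igf2r and Slc38a4 calls did not hold under every alternative (highest adjusted p 0.157 without VHL null replicate 1 and 0.316 without double null replicate 1). Among 14 genes of the IGF system 6 rose and 3 fell. Igfbp2, which binds IGFs, went from 407 and 432 to 5912 and 3000.0 (log2 difference 3.28, adjusted p = 4.82e-06), and 6500.1 and 5698 was read in wild type cells. The 3 that fell were Igf1 (-1.16), Igfbp7 (-1.03) and Igfbp4 (-2.18). Of 36 Wnt and BMP/TGF-β genes 11 rose and 9 fell (6 and 9 with scaling to hybridization controls), among them Bmp4, from 3549 and 3201 to 12378 and 11303 (log2 difference 1.81, adjusted p = 1.24e-06), and the coreceptor gene Tgfbr3, which fell from 13669 and 13495 to 6304 and 5124 (log2 difference -1.25, adjusted p = 5.16e-06). Among limb and craniofacial factors falls numbered 5 without VHL null replicate 1 or double null replicate 1. In the IGF list rises numbered 3 without double null replicate 1.

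Markers of the labelled cell type and of other cell types were compared. Col1a1 read 30167 and 30559 in VHL null and 37279.7 and 31069 in double null cells, and Vim 110259.8 and 107686 against 121629 and 103241, both high in all 4 groups. Of 14 tested fibroblast markers 4 rose and 4 fell. Those that rose were Postn (1.40), Prrx1 (0.92), S100a4 (0.47) and Col3a1 (0.29, not called with scaling to hybridization controls), and those that fell were Pdgfra, from 1616 and 2024 to 160.4 and 189.8, at least 6.25-fold lower, Dcn, from 1128 and 984 to 47.7 and 213, at least 3.63-fold lower, Pdgfrb (-0.55, but -0.31 and adjusted p = 0.0611 with centring per chromosome) and Thy1. Thy1 went from 440 and 348 to 174 and 141, below the median signal on both double null arrays, so the size of its fall is not known. The Thy1 call ended whichever of the 4 arrays was left out (adjusted p up to 0.154). Fewer cells with a transcript and less of it per cell cannot be told apart in such bulk RNA. Defining markers of other cells were low, with VHL null arrays given before double null arrays: leukocyte Ptprc read 73.9 and 31.5 against 61.7 and 46.6, endothelial Pecam1 18.6 and 31.7 against 53.2 and 8.50, adipocyte Adipoq 75.7 and 51.6 against 82.6 and 85.6, muscle Myod1 86.6 and 75.6 against 183 and 164 and epithelial Cdh1 60.2 and 85.3 against 142 and 26.5, all below the median signal. These are 1 marker per list, and other members passed the test. Adipocyte Fabp4 rose from 261 and 209 to 2153 and 1669, with 0 falls among 5 tested. Of 6 tested endothelial markers Flt1 and Flt4 rose and Eng fell. Of 9 tested muscle markers Acta1 and Mef2c rose and Tnnt2 and Pax7 fell. Of 4 tested leukocyte markers Cd14 fell and 0 rose. The Eng, Mef2c, Tnnt2 and Pax7 calls did not hold under every alternative.

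Across whole marker lists, 3 of 18 macrophage and leukocyte markers exceeded the median signal in VHL null against 3 in double null cells, 3 of 17 endothelial markers exceeded the median signal in VHL null against 4 in double null cells, 1 of 11 adipocyte markers exceeded the median signal in VHL null against 2 in double null cells. Of 16 fibroblast markers 14 exceeded it in VHL null against 11 in double null cells, and Fap and Lum were below it on every array. The counts were 6 and 4 of 19 for skeletal muscle markers, 5 and 4 of 20 for epithelial markers, 4 and 5 of 16 for neural and glial markers, 5 and 3 of 19 for cartilage and bone markers. Summed signals over the list ran from 5040.1 to 5177 in VHL null and 4213 to 4414 in double null cells for leukocytes. For endothelium they ran from 3731 to 4140.5 in VHL null and 4790.3 to 4932 in double null cells. Sums for adipocytes were 2417 to 2838 in VHL null and 3919 to 4227 in double null cells, and for skeletal muscle 3894 to 4263 in VHL null and 4897 to 5554 in double null cells. Neural markers summed to 14443 to 15042 in VHL null and 21997 to 24489 in double null cells, and cartilage and bone markers to 6564 to 7252 in VHL null and 7886 to 8126 in double null cells. Of 8 tested neural markers Map2 and Stmn2 rose and Sox2 fell, with a median log2 difference of -0.021. The Sox2 call did not hold under every alternative. Of 9 tested cartilage and bone markers Col10a1 rose and Acan, Col2a1 and Sox9 fell, with a median of -0.089. Epithelial markers summed to 30394 to 30430.5 in VHL null and 46570.3 to 54504 in double null cells. Of the 8 tested, 1 rose and 3 fell, with a median log2 difference of -0.47: the keratin gene Krt19 rose from 14779 and 14849 to 46125 and 39118 (log2 difference 1.52, adjusted p = 4.36e-07), while mesothelin Msln fell from 11570.4 and 10871 to 4982 and 4430.5 (log2 difference -1.25, adjusted p = 1.29e-06), Krt18 from 631 and 684 to 382 and 298 (log2 difference -0.93, adjusted p = 0.00188) and the tight junction gene Cldn1 from 1042 and 1303 to 137 and 176, at least 4.03-fold lower. Genes of the Y chromosome were above the median signal in all 4 groups: Eif2s3y went from 3490.3 and 3693 to 8128 and 9404 (log2 difference 1.28, adjusted p = 2.57e-06), Kdm5d from 498 and 410.1 to 1365 and 1649.5 (log2 difference 1.70, adjusted p = 3.57e-05) and Uty from 1349 and 1325 to 2142 and 2499.5 (log2 difference 0.78, adjusted p = 5.91e-04). With centring per chromosome, which uses these few genes themselves, the differences were 0.25 for Eif2s3y (adjusted p = 0.0526), 0.67 for Kdm5d and -0.25 for Uty. Xist, which silences an X chromosome in female cells, was at or below 294 on every array. The part that any of these differences between lines had in the other results was not tested.

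Median differences varied between chromosomes, and both double null arrays shared the pattern. The median log2 difference was -0.24 over 285 tested genes of chromosome 18, 47.4% of them called lower, and -0.20 on chromosome 5, 38.1% lower. Chromosomes 15 and 14 followed with -0.15 and -0.098. Apart from the Y chromosome, with 4 tested genes and a median of 1.03, the highest medians were 0.21 on chromosome 16, 34.4% called higher, 0.20 on chromosome 13 and 0.17 on chromosome 9. For the autosomes and X, medians differed between replicates by at most 0.0154 within the VHL null group and 0.0506 within the double null group. Between FIH null and wild type cells the medians were 0.11 on chromosome 18 and -0.020 on chromosome 5. Centring each chromosome on its own median left 1720 genes higher and 1729 lower. Around Hif1an on chromosome 19, the nearest 10 tested genes on either side held 3 that rose and 3 that fell, with a median of 0.081. Among all tested genes 20.7% rose and 14.3% fell, so these counts do not set the neighbours apart. Chromosome number was not measured.

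**Figure D5:**
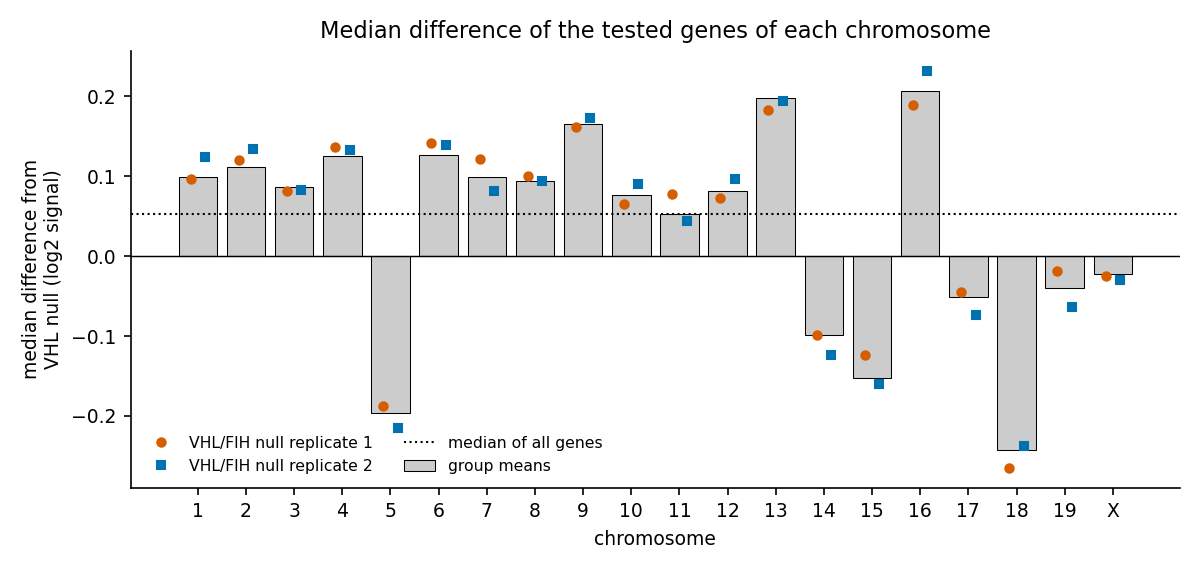
Median log2 difference between double null and VHL null cells of the tested genes of each chromosome; bars are differences of group means, circles and squares the 2 double null arrays each set against the VHL null mean, and the dotted line is the median of all genes. Chromosomes 5, 14, 15 and 18 lie lowest and 9, 13 and 16 highest, and the 2 arrays lie close together.

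Finally the loss of FIH was followed in both settings. Between FIH null and wild type cells 161 genes were higher (1.39%) and 450 lower (3.89%), together 5.28%, beside 4047 called between double null and VHL null cells. That contrast depended on the scale: with scaling to hybridization controls 4567 genes changed between FIH null and wild type cells, 4080 between double null and VHL null cells and 1683 the same way in both. Those controls were 0.26 higher on the log2 scale in FIH null than in wild type arrays, and that scaling lowers every difference between them by as much. Leaving out a wild type or FIH null array lowered the 611 changed genes to between 296 and 321, and those changed the same way in both to between 158 and 179. Interaction calls fell to 1329 without FIH null replicate 1 and 1423 without FIH null replicate 2. In both comparisons 90 genes rose, 55.9% of those that rose with VHL present and 3.77% of those that rose without it. In both 204 genes fell, 45.3% and 12.3% of the respective lists. Beside these stand the shares of all tested genes: 20.7% rose and 14.3% fell without VHL, and 1.39% rose and 3.89% fell with it. Opposite directions were called for 86 genes that rose without VHL and fell with it, and for 20 that did the reverse. Ankrd37 (1.50 with VHL, 2.17 without) and Cavin2 (0.50 and 3.34) were among the shared rises, with Map2, a microtubule protein, at 0.88 and 3.45. Shared falls with the largest mean change were patterning genes and C4bp, a regulator of complement: the antisense transcript Hoxb5os read 3940.0 and 3809 in wild type, 25.2 and 54.7 in FIH null, 5117 and 5415 in VHL null and 29.8 and 19.7 in double null cells. C4bp went from 2554 and 2319 to 19.9 and 157 with VHL present, and from 2657 and 2300.4 to 22.5 and 21.9 without it. Zic1 went from 5762 and 6067 to 189 and 179 with VHL present, and from 13829 and 14791 to 104 and 39.3 without it. In these 3 genes both groups without FIH were below the median signal and both groups with FIH above it.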

How the data were processed

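The authors deposited MAS5 signals, an intensity on a linear scale, for 45101 probe sets on each of 8 arrays; MAS5 is named per the submitters' processing notes, its version and settings are not given in the sources used here. Trimmed means of the arrays were 2500.01, so no further scaling was applied. Signals were taken as log2(signal + 16), and probe sets above 291.1 on at least 2 arrays were tested, without the 64 controls. The 4 group means were estimated from all 8 arrays by lmFit and eBayes with a trend (limma 3.58.1, R 4.3.3), with Benjamini-Hochberg adjustment over all tested probe sets. Gene symbols came from the platform annotation updated through Entrez numbers: 34945 probe sets had 1 symbol, 932 several and 9160 none, and only the first were used. Of 5798 genes with several tested probe sets, 48 had calls in both directions. Among the 2230 of them that were called between double null and VHL null cells, 1238 (55.5%) had a second probe set with the same call.

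Named genes were the HIF subunits, Hif1an and Vhl; the 10 largest rises and falls above the median signal on all 4 arrays; the 6 largest bounds per direction; up to 4 members per list with the smallest p, or 8 for the HIF, hypoxia and glycolysis lists; the 6 largest shared changes per direction; and sex-linked genes. Members and lists were chosen with earlier results of these data known. Stc1, Ndrg1, Pgk1, Ldha, Ndufa4l2, Bnip3, Vegfa, P4ha1, Angptl4, Cdkn1a, Tbx4, Tbx5, Siah1a, Notch1, Jag1, Hey1, the Hox genes outside the rule and members of list counts of at most 5 were chosen after their values were seen. The fit was tested on simulated data. Alternatives were other pseudocounts, filters, scalings and variance models, other readings of a gene's probe sets, the replicate number as a block and leaving out each array. Set against each other for 6 pairs of groups, the replicate 1 minus replicate 2 differences gave r between -0.0157 and 0.0318, so equal numbers were not taken to pair samples.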

Additional observations from a re-analysis of the deposited data

Results flagged for a closer look

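The difference between cells with and without FIH itself differed between VHL null and VHL-intact cells in 2204 genes, by limma's test of the interaction with Benjamini-Hochberg adjustment. In the HIF pathway, hypoxia and glycolysis lists the named genes with such a difference are given here by the log2 interaction, the change without VHL minus the change with it. Values above 0 were those of Car9 (3.84), Selenbp1 (2.84), Adm (2.77), Ndufa4l2 (2.64), Epas1 (2.22), Stc1 (1.63), Egln3 (1.18), Slc2a3 (1.07), Tmem45a (0.79), Pfkfb2 (0.71), Plod1 (0.68), Ankrd37 (0.67), Pfkfb3 (0.66), Ddit4 (0.61), Vegfa (0.54), Ndrg1 (0.53) and Bnip3 (0.36). Values below 0 were those of Angptl4 (-1.11), Cul2 (-0.55) and Pdk3 (-0.38). Car9, Ndufa4l2, Epas1 and Stc1 read below the median signal on both arrays of wild type and of FIH null cells, so the size of their interaction rests on signals that carry little information on level. For Stc1 the difference without VHL was 0.057 and did not pass, and the interaction came from 185 and 132 in wild type against 40.4 and 43.5 in FIH null cells. Groups of 2 arrays are too small for a search for outlying samples.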

How the results depend on the processing

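Of 210 named genes that were called, 154 kept their call and direction in all 24 alternatives that could be fitted and 55 lost the call in at least 1. With scaling to hybridization controls 1276 genes were higher and 2804 lower in double null cells, 4567 changed between FIH null and wild type cells and 1683 changed the same way in both. Without a variance trend the counts were 306 for FIH null against wild type, 1272 for the interaction and 160 for both comparisons. With a change of at least 2-fold 684 genes remained between double null and VHL null cells (414 higher, 270 lower), 205 between FIH null and wild type, 612 for the interaction and 75 in both. Leaving out 1 array at a time gave 2753 to 3932 changed genes, 1663 to 2324 higher and 1090 to 1610 lower, the fewest lower without VHL null replicate 1. The same gave 296 to 743 genes for FIH null against wild type, 1329 to 2090 for the interaction and 158 to 324 in both. Fits without an array have fewer samples, and a lone sample is assumed to vary like the other groups. With the replicate number as a block 2500 genes were higher and 1752 lower; the labels do not say that a number pairs samples. Differences near 0 changed sign in genes that were not called. With median centring Pgk1 was -0.063, Ldha -0.063 and Stc1 -0.015; with scaling to hybridization controls Pgk1 was -0.14, Ldha -0.14, Stc1 -0.089 and Ndrg1 -0.071. Ldha was -0.091 with centring per chromosome. Leaving out 1 array gave -0.12 to 0.14 for Pgk1, -0.13 to 0.14 for Ldha and -0.0072 to 0.12 for Stc1, lowest without double null replicate 1 and highest without double null replicate 2. Called genes that changed sign were Ndufb2 (-0.084 without probe sets that may cross-hybridize) and Uty (-0.25 with centring per chromosome); the cause was not tested. The number of arrays limits the precision, and signals under the median carry little information on level.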
